A study of Mus musculus with 1778 samples.

Results

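The cells described here were sorted mouse embryonic cells that carried at least 2 of 5 ectomesenchyme markers. They were chosen by measured values, Twist1, Dlx2, Prrx1, Prrx2 and Alx1 at 20 CPM (reads of a gene in each 1000000 reads of a cell) or more, and the rule left out cells with 3 or more of 7 endothelial genes (Kdr, Flt1, Tek, Emcn, Esam, Egfl7 and Cdh5) at the same level. The rule was applied to the 10 and 8 somite stages of a table of 1778 cells, and 66.1% (62.4 to 69.7) of the cells kept at these stages met it. They are called multi-marker cells below, because the label ectomesenchyme-like held only in part when it was checked against genes outside the rule.

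The cells came from C57BL/6 embryos with the alleles Wnt1::Cre and Rosa26TdTomato, in which Cre recombinase driven by Wnt1 switches on the red protein TdTomato. Both stages shared these alleles, and the labels name no agent. The reporter stays on in every descendant of a cell in which Cre was active, so it labels the dorsal neural tube as well as the crest that leaves it. Single cells, labelled as cranial neural crest, were read by Smart-Seq2, which covers whole transcripts and uses no molecular identifiers. Cells needed 50000 reads and 1500 genes, and 6 cells did not reach this. The number in the middle of each title is taken to be a plate, and 4 plates, named A to D here, held these stages. Plate A held both, B and D held 10 somites and C held 8 somites. As no embryo is named, a stage is 1 pool, cells were not used as replicates and no test was run. Intervals are exact at 95% and include counting error alone.

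Cranial neural crest cells leave the dorsal neural tube, lose epithelial junctions and move into the face and pharyngeal arches. Migrating crest is known for the transcription factors Sox10 and Ets1. Ectomesenchyme is the share of the cranial crest that forms skeleton and connective tissue of the face. It is known for the bHLH factor Twist1, the homeodomain factors Dlx2, Prrx1, Prrx2 and Alx1 and the receptor Pdgfra, and for loss of Sox10 as cells enter the arches.

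Prrx2 and Dlx2, both on chromosome 2, were the 2 most widespread of the 5 markers, and the bases just before their RefSeq starts (GRCm38.p6) are shown for that reason. A stretch was found for 4 of the 5 markers. Capitals mark CANNTG, the E-box letters that bHLH factors such as Twist1 can bind, which read the same on both strands. The Dlx2 stretch is chr2:71546755-71547004 on the minus strand and holds 2 matches, and the Prrx2 stretch is chr2:30845117-30845366 on the plus strand and holds 0. The Prrx2 stretch lies inside the gene as placed by GENCODE (30834972 to 30881251), so it does not precede the GENCODE gene start, unlike the Dlx2 stretch.
Dlx2: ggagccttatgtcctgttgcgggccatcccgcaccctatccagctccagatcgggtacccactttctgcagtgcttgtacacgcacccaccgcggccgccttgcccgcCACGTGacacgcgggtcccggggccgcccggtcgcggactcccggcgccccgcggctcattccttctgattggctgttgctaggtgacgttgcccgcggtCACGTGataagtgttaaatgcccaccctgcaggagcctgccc
Prrx2: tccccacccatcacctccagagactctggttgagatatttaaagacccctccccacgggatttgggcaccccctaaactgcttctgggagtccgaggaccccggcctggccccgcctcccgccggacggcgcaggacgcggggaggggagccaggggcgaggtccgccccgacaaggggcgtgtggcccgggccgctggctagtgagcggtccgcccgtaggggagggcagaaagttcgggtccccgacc
The motif was present in 66.2% of the 32851 RefSeq stretches of 250 bases searched the same way. A match describes letters and is not a binding site.

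At 10 somites 70.4% of kept cells were multi-marker cells (65.9 to 74.6), and at 8 somites 57.7% (50.997 to 64.2). The difference was smaller within plate A, the plate that held both stages. There 34 of 55 cells at 10 somites met the rule, or 61.8% (47.7 to 74.6), against 56.6% at 8 somites (49.6 to 63.4), which was 120 cells, and these intervals overlap. Plate B held 70.7% (65.8 to 75.2) and plate D 12 of 12, both at 10 somites, and plate C held 11 of 15 at 8 somites. Stage and plate cannot be told apart outside plate A. A total of 45 cells had 2 or more markers but were left out by the endothelial limit, 33 at 10 somites and 12 at 8 somites, and they count among the other cells below.

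Depth was close on both sides. Reads on genes without Rn45s, the ribosomal precursor RNA, had a median of 422026 per multi-marker cell and 447690 per other cell, and the medians of detected genes were 7546 and 7684.5. Rn45s took a median of 45.96% of gene reads in multi-marker cells and 45.4% in other cells. The median depth of multi-marker cells was 560868 reads at 10 somites on plate A, 322104 on plate B and 512914 at 8 somites on plate A. The table names 0 mitochondrial genes, so that measure of RNA quality could not be read.

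The multi-marker cells carried their 5 markers in unequal numbers. Of these cells 21.8% had 2 markers, 35.3% had 3, 31.7% had 4 and 11.2% (50 cells) had all 5. The commonest set was Twist1, Dlx2, Prrx2 and Alx1, in 86 cells, followed by Dlx2 with Prrx2, in 60. These values chose the cells and are given as a description. The second highest marker of a cell was at 20.06 and 20.13 CPM in the cells just inside the threshold, and at 19.88 and 19.46 CPM in the cells just outside. It lay between 20 and 25 CPM in 7 cells and between 15 and 20 CPM in 20 cells.

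Prrx2, a paired-type homeodomain factor of mesenchyme (chromosome 2, 30834972 to 30881251, GRCm38, GENCODE vM21), was the marker found most widely. It reached 20 CPM in 95.1% of multi-marker cells and in 50.9% of other cells. Its summed level in multi-marker cells was 108.6 CPM at 10 somites on plate A, 124.7 CPM on plate B and 103.5 CPM at 8 somites on plate A. In the other cells of the same sets it was 45.03, 35.7 and 36.6 CPM. Single cells overlapped widely, with a highest value of 701.5 CPM among multi-marker cells of plate B and 461.2 CPM among the other cells there.

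Dlx2, a homeodomain factor of the pharyngeal arches (chromosome 2, 71543408 to 71546754), reached 20 CPM in 82.5% of multi-marker cells and in 39 other cells (17.1%). Its median over multi-marker cells was 91.6 CPM at 10 somites on plate A, 83.3 CPM on plate B and 58.9 CPM at 8 somites on plate A. The median of the other cells was 6.86 CPM at 10 somites on plate A and 0 CPM in both other sets. High cells were nevertheless present on both sides, as the highest other cell of plate B had 186.04 CPM.

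Alx1, a homeodomain factor of the frontonasal and periocular mesenchyme (chromosome 10, 102998707 to 103030215), was uneven between cells. It reached 20 CPM in 60.4% of multi-marker cells and in 25 other cells (10.96%). The quartiles over the multi-marker cells of plate B were 1.09, 35.5 and 95.9 CPM, and the highest cell had 917 CPM. On that plate the other cells had quartiles of 0, 0 and 3.99 CPM. Alx1 was therefore near 0 up to the lower quartile of the multi-marker cells of that plate.

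Twist1, the bHLH factor (chromosome 12, 33957671 to 33959829), was low but widespread, at 20 CPM in 62.7% of multi-marker cells and in 22 other cells (9.65%). Its summed levels were 31.1, 36.03 and 26.9 CPM in multi-marker cells of 10 somites on plate A, 10 somites on plate B and 8 somites on plate A. The other cells of these sets had 9.57, 7.03 and 5.36 CPM. Prrx1, the paralog of Prrx2 (chromosome 1, 163245119 to 163313710), was the rarest marker, in 31.7% of multi-marker cells and 14 other cells (6.14%).

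**Figure D1:**
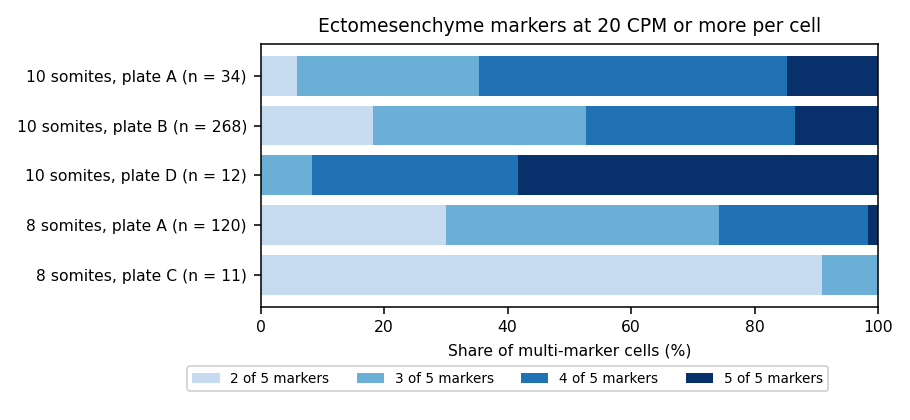
Share of multi-marker cells (horizontal axis, %) that carried 2, 3, 4 or 5 of the 5 ectomesenchyme markers at 20 CPM or more, in each set of stage and plate. On plate D 7 of 12 cells carried all 5 markers, and on plate C 10 of 11 carried only 2.

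The small plates stood apart. In the 11 multi-marker cells of plate C, at 8 somites, Alx1 was at 0.790 CPM and Twist1 at 11.1 CPM. These cells had Wnt1, the dorsal neural tube ligand, at 176.4 CPM, against 35.6 CPM in the multi-marker cells of plate A at the same stage. That plate A level was uneven. The 29 cells with 4 markers had 109.8 CPM, with 3.45% of them at 20 CPM or more. Those with 2, 3 and 5 markers had 7.43, 14.4 and 1.97 CPM. The neural factors Otx2 and Sox2 were at 50.6 and 36.7 CPM on plate C, against 5.76 and 10.3 CPM on plate A. The 12 multi-marker cells of plate D, at 10 somites, had Dlx5, an arch homeodomain factor (chromosome 6, 6877805 to 6882085), at 73.5 CPM, against 7.38 CPM on plate A and 8.20 CPM on plate B. Their Sox10 level of 109.6 CPM was below the 304.96 CPM of plate A and the 370.99 CPM of plate B. Neural genes were higher on plate D as well. The neuroepithelial markers counted below summed to 169.1 CPM there, against 51.1 CPM on plate A and 25.7 CPM on plate B at 10 somites. On plate D 5 of the 12 cells (41.7%) had 3 or more of these markers at 20 CPM. The shares were 2.94% on plate A and 2.61% on plate B. Plates C and D are left out of the ratios to other cells, as they held 4 and 0 of those. Shares given over all multi-marker cells or all other cells include them.

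Checked against genes outside the rule, most multi-marker cells still carried Sox10. Sox10, an SRY-box factor of migrating crest (chromosome 15, 79154908 to 79165240), reached 20 CPM in 93.5% (90.8 to 95.6) of multi-marker cells and in 94 other cells, or 41.2%. Its quartiles over multi-marker cells were 233.3, 349.1 and 503.6 CPM on plate B, and the other cells there had quartiles of 0, 0 and 144.9 CPM. Ets1, an ETS-family factor of cranial crest, reached 20 CPM in 97.8% of multi-marker cells and in 51.3% of other cells. Of 8 migrating crest markers, 3 or more reached 20 CPM in 92.8% of multi-marker cells and in 95 other cells (41.7%). None of the 8 was at 0 in the multi-marker cells as a whole, but Foxd3 and Tfap2a were low. In multi-marker cells of plate A Foxd3 was at 5.34 CPM at 10 somites and 7.43 CPM at 8 somites. Tfap2a was at 3.72 and 4.94 CPM in the same order. Foxd3 reached 20 CPM in 8.82% and 14.2% of those cells, and Tfap2a in 0% and 4.17%.

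Of genes known from later facial mesenchyme, 4 picked as examples were at or near 0. Hand2, a factor of the lower jaw, was at 0 CPM in the multi-marker cells of 10 somites on plates A and B and at 0.0484 CPM in those of 8 somites on plate A. Dlx6, Barx1 and Runx2, factors of the arches and of bone, reached 20 CPM in 0 multi-marker cells, which allows a share of up to 0.826% of cells at that level. The fibrillar collagen genes differed. Col1a1 reached 20 CPM in 16 multi-marker cells (3.596%) and 9 other cells (3.95%), but Col1a2 in 73.9% of multi-marker cells and 75 other cells (32.9%).

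**Figure D2:**
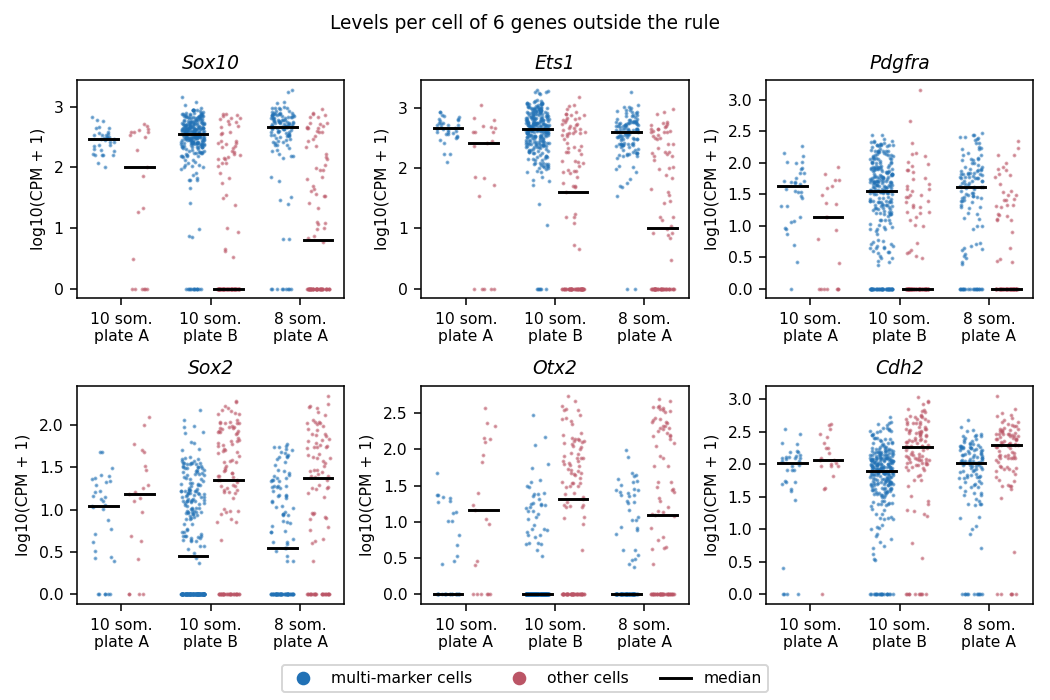
Level per cell (vertical axis, log10 of CPM + 1) of 6 genes outside the rule in multi-marker cells (blue, left of each pair) and other cells (red) of 10 somites on plates A and B and of 8 somites on plate A, with the median as a black line. Sox10 and Ets1 lie high in nearly all multi-marker cells, with medians of 349.1 and 442.9 CPM on plate B, and other cells cover the whole range.

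A minority of the multi-marker cells, 29 in number, had Sox10 below 20 CPM. They lay in 3 sets, with 17 on plate B and 1 on plate D at 10 somites and 11 on plate A at 8 somites, and plate A at 10 somites and plate C held 0. The split by Sox10 and the genes named in it were chosen after values were seen, so it is a description with no test. The 29 cells met the rule mainly through Prrx2, at 20 CPM in 29 cells, Prrx1 in 22 and Twist1 in 18. Dlx2 reached that level in 3 of the 29, or 10.3%, against 87.5% of the multi-marker cells with Sox10.

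Crest genes other than Sox10 were low in these 29 cells too. Tfap2b, an AP-2 factor of crest, was at 1.52 CPM in the 29 cells and at 107.8 CPM in the multi-marker cells with Sox10. The factor Mef2c was at 3.21 CPM against 189.2 CPM, and the neuregulin receptor Erbb3 at 0.760 CPM against 50.7 CPM. Ets1 was lower as well, at 96.2 CPM against 481.01 CPM, but 21 of the 29 cells still had 20 CPM of it. Tbx3, a T-box factor, reached 20 CPM in 0 of the 29 cells and in 63.7% of those with Sox10.

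Genes of head mesenchyme stood high in the same 29 cells. Col3a1, a fibrillar collagen (chromosome 1, 45311538 to 45349706), was at 419.4 CPM in the 29 cells and at 8.92 CPM in those with Sox10. Lum, a matrix proteoglycan, was at 258.1 CPM against 5.72 CPM. The forkhead factors Foxc2 and Foxd1 reached 20 CPM in 21 and 19 of the 29 cells, against 25 and 12 of those with Sox10. Tbx1, a factor of head muscle mesoderm, reached it in 18 of the 29 cells, against 30 of those with Sox10. Pdgfra was at a like level on both sides, 56.1 CPM in the 29 and 52.5 CPM in those with Sox10.

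Head mesoderm markers were more frequent in these 29 cells. Of 10 head mesoderm markers, 2 or more reached 20 CPM in 16 of the 29 cells and in 20 cells with Sox10 (4.81%), and the summed level of the 10 ran from 0 to 2602 CPM (median 147.7) in the 29 and from 0 to 3800.5 CPM (median 0) in those with Sox10. Mesp1 was at 0 in the 29 cells. Of 13 endothelial markers, Tek, Esam, Cdh5, Pecam1, Tie1 and Cldn5 were at 0 in the 29 cells, but Kdr was at 111.8 CPM, against 8.21 CPM in the cells with Sox10, and reached 20 CPM in 5 of the 29. The summed level of the 13 ran from 0 to 1931 CPM in the 29 and from 0 to 1431 CPM in those with Sox10. The part of other cell types in these values was not tested.

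**Figure D3:**
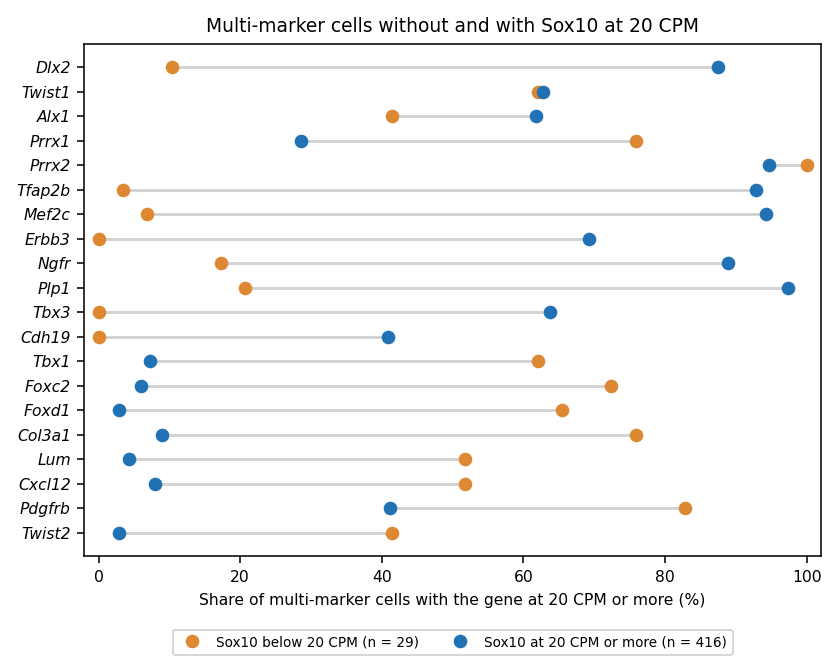
Share of multi-marker cells (horizontal axis, %) with each gene at 20 CPM or more, for the 29 cells with Sox10 below 20 CPM (orange) and those with Sox10 at 20 CPM or more (blue). Twist1 is alike in both (62.1% and 62.7%), Dlx2 is at 10.3% and 87.5%, and Foxc2 at 72.4% and 6.01%.

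Set against the other cells of the same stage and plate, multi-marker cells had more transcripts of genes such as Snai1, Erbb3 and Pdgfra and fewer of most measured genes of the endothelial, epithelial junction and neuroepithelial lists. The contrast was the log2 ratio of summed CPM, with 0.5 reads added, and a gene was counted where it was at least 2-fold apart in the same direction in each of 3 sets (10 somites on plate A, 10 somites on plate B and 8 somites on plate A). Of 6725 genes outside the rule with 20 CPM on the higher side, 26 were higher, or 0.387%, and 2.3% were lower. The median gene had a ratio of -0.00. The same cells chose the members and gave the contrast, so these values describe the cells and do not test a difference. More cells with a gene and more RNA of it per cell cannot be told apart in summed reads, so shares of cells are given beside the sums.

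The other cells were a mixture, and this bears on each ratio. Of the other cells 62 had 3 or more of the 7 endothelial genes of the rule, and 45 of those 62 had 2 or more ectomesenchyme markers. Of 9 neuroepithelial markers, 3 or more reached 20 CPM in 25 multi-marker cells (5.62%), against 44.3% of other cells. Plates C and D, which the ratios leave out, gave 10 and 5 of these 25 cells. The summed level of the 9 per cell had a median of 9.08 CPM in multi-marker cells, ranging from 0 to 2806 CPM, and of 186.4 CPM in other cells, ranging from 0 to 1102 CPM.

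S1pr3, a receptor for the lipid sphingosine 1-phosphate (chromosome 13, 51408639 to 51422797), had the largest median ratio among the 15 higher genes named. Its summed level in multi-marker cells was 22.7 CPM at 10 somites on plate A, 24.97 CPM on plate B and 39.4 CPM at 8 somites on plate A. In other cells it was 8.30, 3.46 and 1.66 CPM. The median log2 ratio over the 3 sets was 2.84, but only 20% of multi-marker cells and 12 other cells (5.26%) reached 20 CPM. The 29 cells without Sox10 had 214.5 CPM of it and the multi-marker cells with Sox10 had 17.6 CPM, and without the 29 the ratio was 2.01. Its relative S1pr2 was different, at 20 CPM or more in 95.1% of multi-marker cells and 52.2% of other cells, with a ratio of 1.60 that was 1.61 without the 29 cells.

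Factors and receptors of migrating crest were among the higher genes. Snai1, a zinc-finger repressor of epithelial genes, was at 110.7 CPM in multi-marker cells of 10 somites on plate A, 116.2 CPM on plate B and 100.9 CPM at 8 somites on plate A, against 47.9, 30.6 and 21.4 CPM in other cells. It reached 20 CPM in 91.01% of multi-marker cells and 85 other cells (37.3%). Snai1 was thus found in most multi-marker cells and not only in a few.

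Erbb3 was at 48.6, 49.6 and 50.1 CPM in multi-marker cells of the same sets, against 17.2, 14.2 and 11.3 CPM in other cells, with a ratio of 1.80. Foxd2, a forkhead factor, had a ratio of 2.48 and reached 20 CPM in 37.8% of multi-marker cells and 15 other cells (6.58%). Cdh19, a cadherin of crest derivatives, had a ratio of 2.06, with levels of 28.96, 21.7 and 22.8 CPM in multi-marker cells and 14.1, 4.45 and 5.46 CPM in other cells. These 3 genes lay in the same direction as Snai1 in each set.

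Pdgfra, the receptor for PDGF-A that cranial mesenchyme needs (chromosome 5, 75152292 to 75198215), was at 51.8 CPM in multi-marker cells of 10 somites on plate A, 50.5 CPM on plate B and 60.3 CPM at 8 somites on plate A, against 22.9, 17.7 and 16.7 CPM in other cells. Its ratio was 1.51. Cells were thinned to 50000 reads without Rn45s, and 1 multi-marker cell and 3 other cells with fewer were left out. After this, 65.3% of multi-marker cells and 23.6% of other cells had at least 1 read of Pdgfra. The unthinned share with a read of it in multi-marker cells was 84.7%. Pdgfa, its ligand, lay the other way, with a ratio of -2.77 and 20 CPM in 17 multi-marker cells (3.82%) and 50 other cells (21.9%).

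The rest of the 15 higher genes had varied roles. Tmem119, a membrane protein known from bone-forming cells, was at 136.3 CPM in multi-marker cells of 10 somites on plate A, 113.4 CPM on plate B and 95.7 CPM at 8 somites on plate A, against 39.1, 18.8 and 23.98 CPM in other cells. Adam12, a metalloprotease of mesenchyme (chromosome 7, 133883199 to 134232146), had levels of 39.2, 43.95 and 27.3 CPM in multi-marker cells and 12.3, 9.95 and 7.84 CPM in other cells. Itga8, an integrin subunit, and Lama4, a laminin chain, had ratios of 1.62 and 1.495. Npr3, a clearance receptor for natriuretic peptides, had a ratio of 1.66, and the transcriptional cofactor Lmo4 one of 1.44. Pxdc1 and the kinase gene Cdk18 complete the 15 with ratios of 2.23 and 1.94.

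**Figure D4:**
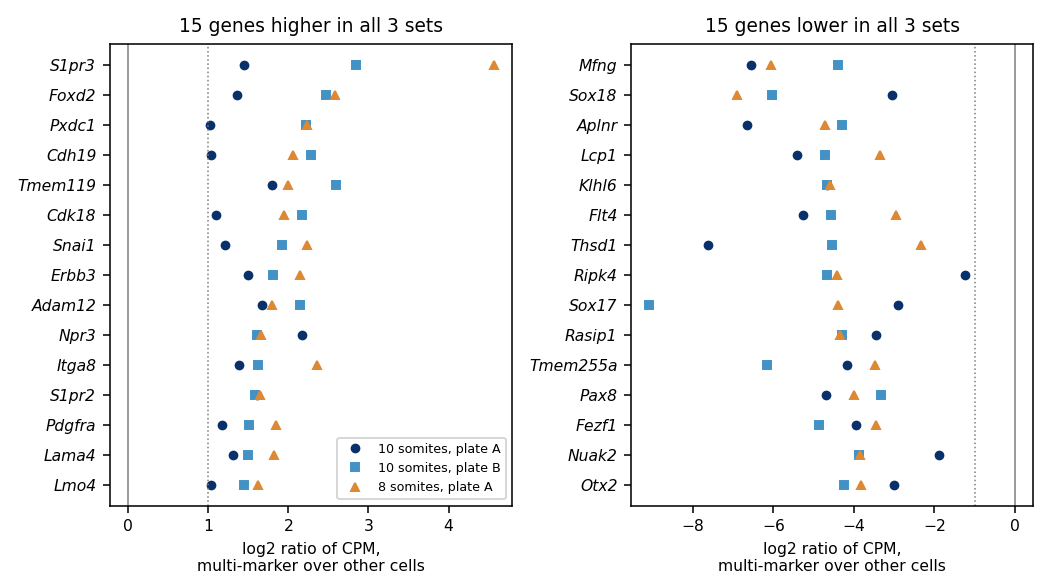
Log2 ratio of summed CPM, multi-marker over other cells (horizontal axis), for the 15 genes with the largest median ratio in each direction among genes outside the rule, with 1 point for each set of stage and plate. The dotted line marks 2-fold. At 10 somites on plate A the ratio of S1pr3 is 1.45, against 4.56 at 8 somites on the same plate.

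Among the 15 genes with the largest ratios in the other direction were the endothelial genes Sox18, Sox17, Flt4, Aplnr, Thsd1 and Rasip1. Sox18 and Sox17, SRY-box factors of endothelium, had ratios of -6.04 and -4.39, Flt4, a VEGF receptor, -4.58, and Aplnr, the apelin receptor, -4.73. The rule put cells with 3 or more endothelial genes on the other side, so it set part of these values. When those 62 cells were left out of the other side, Sox18 was at 0.76, Aplnr at 3.37 and Flt4 at 0.88, so their direction turned. These ratios came from low levels. In multi-marker cells Sox18, Aplnr and Flt4 were at 5.50, 0.995 and 0.681 CPM at 10 somites on plate A. They were at 0.307, 3.99 and 3.55 CPM at 8 somites. Of the other cells left there, those with 0 markers had 0.351, 3.96 and 1.35 CPM. On plate B Aplnr stood at 0.632 and 0.170 CPM with 0 and 1 markers, and at 9.98 CPM or less with more. Without those 62 cells Sox17 was at -1.53 and Mfng, a glycosyltransferase of the Notch pathway with a ratio of -6.06 over all other cells, at -4.70. Lcp1, an actin-bundling protein of blood cells, had -4.72 and turned likewise to 1.07.

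Genes of the neural tube were lower with and without those cells. Otx2, a factor of forebrain and midbrain, was at 6.81 CPM in multi-marker cells of 10 somites on plate A, 3.70 CPM on plate B and 5.76 CPM at 8 somites on plate A, against 54.7, 70.7 and 81.97 CPM in other cells. Its ratio was -3.83, or -4.10 without the endothelial cells. Nuak2, an AMPK-related kinase, had 20 CPM in 72 multi-marker cells (16.2%) and 58.8% of other cells, with a ratio of -3.85.

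Among genes grouped in lists, read at 5 CPM or more, 48 of 9599 genes outside the rule were higher (0.5%) and 4.35% were lower, with a median ratio of -0.04. Of 18 measured crest specifiers 2 were higher, Erbb3 and Mef2c, and 0 were lower, and their median was 0.99. Sox10, Ets1, Ngfr and Tfap2b were not counted, because they were less than 2-fold apart at 10 somites on plate A. There Sox10 was at 304.96 CPM in multi-marker cells and 217.2 CPM in other cells, and 13 of the 21 other cells had Sox10.

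Of 12 measured facial mesenchyme factors outside the rule 2 were higher, Snai1 among them, and 2 were lower, Msx1 and Meis1, with a median of 0.96. Msx1, a homeodomain factor of the dorsal neural tube and arches, had a ratio of -2.07. The list was thus not uniform.

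All 7 measured epithelial junction genes, Cdh1, Epcam, Cldn6, Cldn7, Esrp1, Krt8 and Krt18, were at least 2-fold lower in the 3 sets, although Krt8 turned to 0.49 when Sox10 cells with fewer than 3 endothelial genes were compared. Cdh1, the epithelial cadherin, reached 20 CPM in 16 multi-marker cells (3.596%) and 32 other cells (14.04%). Krt18, a keratin of simple epithelia, was at 49.8, 14.1 and 32.4 CPM in multi-marker cells of 10 somites on plate A, 10 somites on plate B and 8 somites on plate A, against 182.5, 200.2 and 170.4 CPM in other cells. Of 8 surface ectoderm markers, 3 or more reached 20 CPM in 33 multi-marker cells (7.42%) and 52 other cells (22.8%), and the summed level of the 8 ran up to 4078 CPM in multi-marker cells and 17464 CPM in other cells. The part of surface ectoderm in these values was not tested.

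Of 10 measured neuroepithelial genes 7 were lower, among them the factors Sox21, Pax6 and Sox2, and 0 were higher. Sox21 reached 20 CPM in 29 multi-marker cells (6.52%) and 50% of other cells. Cdh2, the neural cadherin, was not counted, with levels of 102.02, 96.4 and 113.9 CPM in multi-marker cells and 161.985, 237.7 and 221.6 CPM in other cells of the 3 sets. It was still at 20 CPM in 85.6% of multi-marker cells. Of 12 measured endothelial genes outside the rule 10 were lower, with a median of -3.66, and without the 62 cells with endothelial genes that median was 0.69. The whole list of 15 genes summed to 77.2, 48.1 and 49.4 CPM in multi-marker cells of the 3 sets.

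Signalling lists gave few counts. Of 7 measured genes of PDGF and endothelin signalling, Pdgfra was higher and Pdgfa and Edn1, the endothelin ligand, were lower. Among Wnt response genes 3 of 9 were lower, Axin2, Sp5 and Dkk1, and 0 were higher, and Dkk1 turned to 0.22 when only other cells with Sox10 were kept. Axin2, a feedback inhibitor of Wnt signalling, was at 11.7, 10.2 and 12.98 CPM in multi-marker cells of the 3 sets, against 25.1, 25.5 and 27.1 CPM in other cells. Of 10 measured BMP and TGFb response genes Id1 was higher and Msx1 lower, with a list median of 0.03. Id1, a target of BMP signals, was higher with a ratio of 1.20 and 20 CPM in 90.1% of multi-marker cells and 65.8% of other cells. Of 10 measured FGF response genes Spry4, a feedback inhibitor of FGF signals, was higher with a ratio of 1.42, and its relative Spry2 was lower. Jag1, a Notch ligand, was lower with a ratio of -1.24.

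Of 30 S phase genes and 42 G2M genes 0 were at least 2-fold apart, with medians of -0.03 and -0.07, and the sign of the S phase median turned under other scalings. Of 14 measured matrix genes Sparc was lower and 0 were higher. Sparc, a collagen-binding glycoprotein, was at 60.96, 39.95 and 50.1 CPM in multi-marker cells of the 3 sets, against 130.6, 222.1 and 205.7 CPM in other cells. Of 6 measured head mesoderm genes 0 were higher and 0 lower. Fos, an immediate early gene, differed by set, at 18.2 CPM in multi-marker cells and 316.03 CPM in other cells of 10 somites on plate A, and at 10.4 CPM in multi-marker cells and 8.57 CPM in other cells of 8 somites on the same plate.

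The counts rested on which cells were set on the other side. When only cells with Sox10 at 20 CPM or more were kept on both sides, 1 gene of 6526 was higher, or 0.0153%, and 34 were lower, or 0.521%. That gene was Adam12, at 39.2, 46.6 and 30.04 CPM in multi-marker cells of 10 somites on plate A, 10 somites on plate B and 8 somites on plate A, against 12.3, 16.01 and 14.2 CPM in other Sox10 cells. When cells with 3 or more endothelial genes were also removed, plate B and 8 somites on plate A were left, with 19 and 24 other cells. There 29 genes of 6715 were higher, or 0.432%, and 79 were lower, or 1.18%. These comparisons, and the genes named from them, were chosen after values were seen.

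In that narrow comparison of Sox10 cells, Tbx3 (chromosome 5, 119670669 to 119684724) had a ratio of 2.98, the largest among genes outside the rule that had 20 CPM on the higher side and were called. It was at 72.7 CPM in multi-marker cells and 8.61 CPM in other Sox10 cells on plate B, and at 51.1 CPM and 6.88 CPM in the same order at 8 somites on plate A. Pxdc1, Adam12 and Tmem119 were higher there too, with ratios of 2.25, 1.91 and 1.55. Bgn, a small matrix proteoglycan, was at 49.3 CPM in multi-marker cells and 9.52 CPM in other Sox10 cells on plate B. Col9a1, a collagen of cartilage, was at 65.1 CPM in multi-marker cells and 20.2 CPM in other Sox10 cells there.

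Genes of the dorsal neural tube and brain stood among the lower genes of the same comparison. Msx3, a homeodomain factor of the dorsal neural tube, was at 3.44 CPM in multi-marker cells and 71.7 CPM in other Sox10 cells on plate B, with a ratio of -4.07 over both sets. The neural factors Lhx5 and Otx2 had ratios of -3.80 and -3.10, the ligand genes Fgf15 and Wnt1 -3.48 and -2.94, and the adhesion molecule gene Nrcam -2.98. Pdgfra and Snai1 had smaller ratios over these sets, 0.38 and 0.87.

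Levels followed the number of markers on plate B, where the sets were largest. Among cells with fewer than 3 endothelial genes, those with 0, 1, 2, 3, 4 and 5 markers numbered 42, 38, 49, 92, 91 and 36. Snai1 stood at 6.25, 52.98, 59.8, 113.5, 120.7 and 177.7 CPM over these numbers. Mef2c stood at 11.9, 60.97, 125.6, 178.9, 206.9 and 229.9 CPM, and Tmem119 at 1.96, 19.9, 50.7, 114.1, 129.5 and 146.6 CPM. On this plate these 3 genes were higher at each step.

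Sox10 did not follow that course. It stood at 25.3, 201.8, 405.3, 396.4, 370.1 and 278.7 CPM over 0 to 5 markers, so cells with all 5 had less of it than cells with 2. On plate B the neural genes Cdh2, Otx2 and Sox2 were lower at 3 markers than at 0. Of these only Cdh2 was lower at each step, at 303.7, 270.5, 151.1, 91.1, 85.1 and 71.1 CPM. Otx2 stood at 120.2, 44.6, 10.6, 2.08, 2.85 and 1.04 CPM. Sox2 stood at 78.4, 30.4, 13.4, 8.45, 10.5 and 12.5 CPM, so it was not lower at 4 and 5 markers than at 3. The number of markers is a range cut from the same cells, and these orders are descriptions. At 8 somites on plate A only 2 cells had all 5 markers, and Snai1 stood there at 4.36, 25.3, 82.15, 104.035, 114.9 and 126.8 CPM. At 10 somites on plate A, with 2 to 17 cells at each number, Snai1 stood at 3.56, 14.6, 173.4, 116.7, 101.6 and 100.6 CPM over 0 to 5 markers and did not follow the order of plate B. Over 2, 3 and 4 markers Tmem119 stood at 87.5, 183.8 and 114.01 CPM there and at 106.2, 88.4 and 94.5 CPM at 8 somites on plate A, so it followed that order in neither set. Mef2c stood at 215.5, 175.8 and 239.6 CPM over these numbers at 10 somites on plate A.

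**Figure D5:**
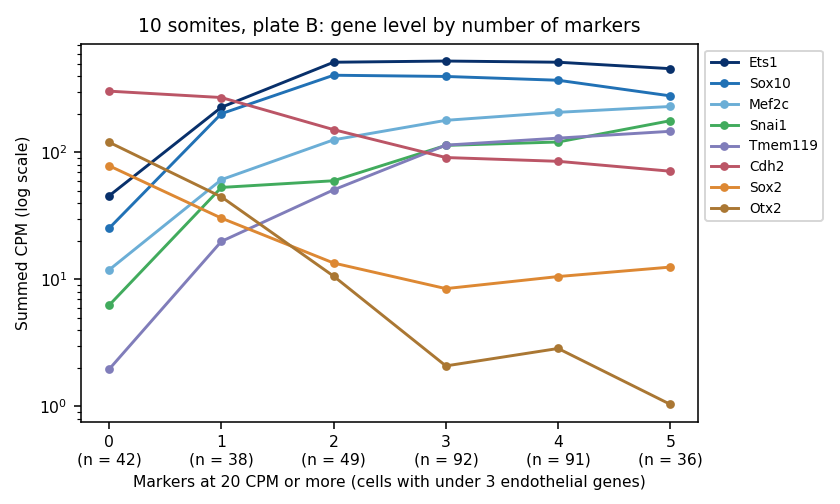
Summed CPM (vertical axis, log scale) of 8 genes outside the rule against the number of ectomesenchyme markers per cell (horizontal axis, with the number of cells), for cells of 10 somites on plate B with fewer than 3 endothelial genes. Snai1, Mef2c and Tmem119 are highest with 5 markers, Sox10 with 2 (405.3 CPM), and Otx2 with 0 (120.2 CPM).

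The 45 cells that the endothelial limit left out had markers of both kinds. Sox10 reached 20 CPM in 41 of the 45 (91.1%), in 93.5% of multi-marker cells and in 4 of the 17 cells with 3 endothelial genes but fewer than 2 markers. Kdr, the VEGF receptor of the rule, was at 187.8 CPM in the 45 cells, 14.6 CPM in multi-marker cells and 652.2 CPM in the 17. Tie1, an endothelial receptor outside the rule, reached 20 CPM in 19 of the 45, in 0 multi-marker cells and in 13 of the 17. The 45 cells had a median of 9955 detected genes, multi-marker cells 7546 and the 17 cells 7202, at median depths of 446454, 422026 and 429586 reads. No doublet caller was run on these singly sorted cells, and the part of wells with more than 1 cell was not tested. Egfl7 of the endothelial rule reached 20 CPM in 58.7% of multi-marker cells and 59.2% of other cells, so 1 endothelial gene alone was common on both sides.

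Between stages, the multi-marker cells were compared on plate A, with 34 cells of 10 somites and 120 of 8 somites. Their median of detected genes was 9282.5 at 10 somites and 7563 at 8 somites, at median depths of 560868 and 512914 reads. The part of this difference in the stage ratios was not tested. Of 6917 genes with 20 CPM at 1 of the stages, 56 were at least 2-fold higher at 10 somites, or 0.81%, and 77 were lower, or 1.11%. Each stage was 1 pool, so the difference between stages has no replicate check.

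Alx1, a gene that chose the cells, is given as a description. It was higher at 10 somites, at 134.5 CPM against 63.7 CPM at 8 somites, a log2 ratio of 1.08, and its median over cells was 79.2 CPM at 10 somites and 23.6 CPM at 8 somites. The other markers of the rule were less than 2-fold apart, with ratios of 0.47 for Prrx1, 0.39 for Dlx2, 0.21 for Twist1 and 0.07 for Prrx2. Sox10 was lower at 10 somites, at 304.96 CPM against 476.04 CPM at 8 somites, but less than 2-fold (ratio -0.64). Pdgfra and Erbb3 had ratios of -0.22 and -0.04. In the other cells of the plate Alx1 was at 44.5 CPM at 10 somites and 7.74 CPM at 8 somites.

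Enzyme genes stood among the 6 with the largest positive ratios. Eogt, a glycosyltransferase, was at 21.2 CPM at 10 somites and 4.55 CPM at 8 somites. Prss23, a serine protease, was at 38.6 CPM at 10 somites and 9.93 CPM at 8 somites. Alpl, the tissue-nonspecific alkaline phosphatase, was at 28.5 CPM at 10 somites and 8.57 CPM at 8 somites. Nuak2, Tdrkh and the zinc-finger gene Zfp119b had ratios of 1.94, 1.89 and 1.95. With Sox10 cells alone the 6 genes had ratios between 1.62 for Alpl and 2.25 for Eogt.

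The 6 with the largest negative ratios came from few cells. Col3a1 was at 0.838 CPM at 10 somites and 45.8 CPM at 8 somites, a ratio of -5.73, with 20 CPM in 2.94% and 18.3% of cells in the same order. Acta2, smooth muscle actin, was at 1.15 CPM at 10 somites and 39.2 CPM at 8 somites. All 11 multi-marker cells of plate A without Sox10 were at 8 somites, and with Sox10 cells alone Col3a1 was at 0.838 CPM at 10 somites and 13.6 CPM at 8 somites. For Tbx1 the ratio was -3.16, and -0.87 with Sox10 cells alone.

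The embryonic globin genes Hba-x and Hbb-bh1 had ratios of -4.03 and -3.74 between the stages. Of 5 blood markers, 3 or more reached 20 CPM in 0 of the 34 cells at 10 somites and in 5 cells at 8 somites on plate A, and their summed level per cell ran from 0 to 211.6 CPM at 10 somites and from 0 to 4162 CPM at 8 somites. The part of blood RNA in these values was not tested.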

How the data were processed

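Counts of reads per gene and cell, whole numbers without molecular identifiers, were deposited by the authors as 1 table, per the labels' protocols and the values. The submitters' processing notes list bcl2fastq 2.18, STAR 2.6 and mm10, and the counter is not stated there. Rows covered 24920 genes and 92 spike-ins. Of 679 cells of 10 and 8 somites 673 were kept, 446 at 10 somites and 227 at 8 somites. Multi-marker cells numbered 445 (314 at 10 somites, 131 at 8 somites) and other cells 228. Sox10 was at 20 CPM or more in 416 multi-marker cells. By set, multi-marker cells of all kept cells were 34 of 55 (10 somites, plate A), 268 of 379 (10, B), 12 of 12 (10, D), 120 of 212 (8, A) and 11 of 15 (8, C).

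CPM was computed over reads except spike-ins and Rn45s, which took 47.9% of gene reads. A comparison needed 10 cells on each side of a set. Genes named were the 15 with the largest median ratio in each direction with a read in 20% of thinned cells, up to 4 per list, genes of the rule, chosen crest and mesenchyme genes, and 6 per direction between stages; any other gene was chosen after its values were seen. The members and the 28 gene lists were chosen with earlier results of these data known. Scaling by edgeR 4.0.16 and DESeq2 1.42.0 was an alternative, as were other thresholds, filters, cell sets and plates left out. Python 3.11.15 and SciPy 1.17.1 were used, and the counting steps were run on simulated data with known changes. Those data split cells at random and held no mixture of cell types, so they do not check the counts reported here. Positions are from GENCODE vM21 and promoter sequences from RefSeq. Some genes are not reported here.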

Additional observations from a re-analysis of the deposited data

Results flagged for a closer look

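Cells of the 2 earlier stages, which no comparison used, also met the rule. It was met by 10.5% (6.74 to 15.3) of kept cells at 4 somites, which was 23 cells, and by 21.9% (19.2 to 24.9) at 6 somites. The values of the rule chose these cells, so the shares are a description, and no difference between stages was tested.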

How the results depend on the processing

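No paired analysis was possible because each stage was 1 pool and no test was run. The share of multi-marker cells, 70.4% at 10 somites and 57.7% at 8 somites, was 58.97% and 38.3% at 50 CPM, 58.97% and 37.4% with 3 of 5 markers, 26.2% and 17.2% with no endothelial gene, 61.9% and 48.9% with Rn45s in CPM, 63.5% and 41.9% without Dlx2, and 60.8% and 39.6% without Prrx2. With no endothelial limit it was 77.8% at 10 somites.

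Of genes tested, 0.387% were higher and 2.3% lower in multi-marker than in other cells. These shares were 0.953% and 7.01% with no minimum CPM, 0.105% and 1.48% with 3 of 5 markers, 0.0152% and 0.365% with no endothelial gene, 0% and 0.429% with Sox10 in the other cells, and 0.0153% and 0.521% with Sox10 on both sides. At 50 CPM 0.105% were higher, without endothelial cells on the other side 1.10% were higher, and with Sox10 on both sides and no endothelial cells 1.18% were lower. Without plate A, which leaves 1 set, they were 1.32% and 6.02%. The count of 0 with Sox10 in the other cells comes from no test.

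Between stages the shares were 0.81% and 1.11%. With all plates pooled they were 0.507% and 0.275%, and with no minimum CPM 10.03% and 17.5%. The share with a read of Pdgfra, 65.3%, was 80.7% at 200000 reads and 84.7% unthinned.

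Among named genes at least 2-fold apart in all 3 sets at 5 CPM or more, the direction turned for Dkk1 (0.22) with Sox10 in the other cells. Without endothelial cells on the other side it turned for Sox18 (0.76), Aplnr (3.37), Lcp1 (1.07), Flt4 (0.88), Cldn5 (0.51), Tie1 (0.41), Pecam1 (1.25) and Atf3 (1.17). Of these, Sox18, Aplnr, Lcp1 and Flt4 were below 20 CPM on both sides of each set. Cldn5, Tie1 and Pecam1 were low too, at 0.157, 0.0991 and 0.517 CPM over all multi-marker cells. Atf3 was at 5.39 CPM at 10 somites and 5.83 CPM at 8 somites in multi-marker cells of plate A. With Sox10 on both sides as well the direction turned for Sox18 (1.26), Aplnr (1.44), Lcp1 (2.93), Rasip1 (0.85), Tmem255a (3.24), Cldn5 (1.18), Krt8 (0.49), Pecam1 (1.84), Atf3 (0.44) and Spry2 (0.07). Isl1 (3.32) and Il17rd (1.08) were among the genes not called that also turned there. The median of the endothelial list outside the rule, -3.66, was 0.69 and 1.22 under these 2 settings, and list medians near 0 changed sign under several settings. The settings with Sox10 in the multi-marker cells or on both sides were chosen after seeing the data. The cause was not tested beyond the cells each setting removes.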
